A study of Rattus norvegicus with 26 samples.

Results

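The genes described here are the fibroblast growth factor (FGF) ligands, their receptors and the proteins that feed back on FGF signalling, measured by microarray during smooth muscle differentiation of rat multipotent adult progenitor cells (rMAPC). They were chosen by name alone: every gene probe on the array whose gene name starts with Fgf and a digit, Fgfr, Spry, Spred or Dusp and a digit, with the brightest probe kept for each gene (highest mean log2 signal over all 26 arrays). The rule gave 59 genes on 77 probes, out of 35287 gene names on 41012 gene probes. They comprise 22 ligands, 7 receptors and genes named for them, 7 Sprouty and Spred genes, 10 phosphatases of mitogen-activated protein kinases (MAPK) and 13 other dual-specificity phosphatases (DUSP).

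The lines Cl19 and 3c3 are *Oct4*-expressing clonal rMAPC lines from bone marrow of female Fischer rats, and each is 1 clone. Cl19 is labelled as coming from a rat of 3 weeks, and 3c3 as E18, that is embryonic day 18. Both were cultured for 6 days in serum-free basal medium with TGF-β and PDGF-BB, and RNA was taken in triplicate on d0, before the factors, and on d2, d4 and d6. No culture kept without the factors was analysed here, so the factors and the other changes over time in culture cannot be told apart. The comparison group, primary smooth muscle cells (SMC), is 2 arrays of RNA labelled as commercial rat aortic RNA, and its strain, sex and age are not in the labels. The study's methods call the 3 replicates of each day biological, but what set them apart (culture, passage or animal) is not in the labels. Primary SMC RNA was run in duplicate by those methods, and whether that was 2 samples or 1 RNA hybridised again is not stated. The p-values measure the spread between these arrays.

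FGF ligands bind receptor tyrosine kinases together with heparan sulphate or, for the hormone-like ligands, a Klotho protein, and the activated receptor signals mainly through RAS and the MAPK ERK. ERK switches on genes that damp the same cascade: Sprouty and Spred proteins act on RAS and RAF, and MAPK phosphatases such as DUSP6 remove the phosphates from ERK itself. In smooth muscle, FGF2 is known as a growth factor that opposes contractile differentiation, and in embryos FGF8 and FGF4 act in gastrulation and mesoderm formation.

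A fluorescence value on this array is that of one 60-base probe, so the probes of the genes on which the results turn are shown first, 5′ to 3′, to say which transcript stretch each value stands for. All letters are in lower case because no stretch is singled out. Coordinates are on rn4, as the array files give them.
*Fgf8* (chr1:250951312-250952269, minus strand): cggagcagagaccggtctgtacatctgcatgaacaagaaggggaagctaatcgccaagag
*Fgf16* (chrX:93878442-93879862, plus strand): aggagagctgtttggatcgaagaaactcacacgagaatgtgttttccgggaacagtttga
*Fgfr4* (chr17:15512990-15513049, minus strand): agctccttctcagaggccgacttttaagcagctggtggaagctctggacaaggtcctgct
*Spry1* (chr2:124217774-124217833, plus strand): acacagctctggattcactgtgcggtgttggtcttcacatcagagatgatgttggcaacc
*Spry2* (chr15:90009823-90009882, minus strand): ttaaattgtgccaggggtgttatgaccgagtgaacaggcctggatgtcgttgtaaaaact
*Dusp6* (chr7:36896854-36896913, plus strand): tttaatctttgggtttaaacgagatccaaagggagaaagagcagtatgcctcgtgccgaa
*Dusp9* (chrX:159541777-159541836, plus strand): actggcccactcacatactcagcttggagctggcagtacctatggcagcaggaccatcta
The *Fgf8* probe spans 958 bases of genome and the *Fgf16* probe 1421 bases for their 60 letters, so each lies across an exon junction, whereas the other 5 match 1 unbroken stretch of 60 bases.

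Between 43.2% and 61.4% of gene features were well above background per array, and no probe of the group was saturated. The 4 arrays of 3c3 replicate 3, which share a slide, had a mean processed signal of 1.77 to 5.30 on negative control spots, against 0.99 to 1.24 on the other 22. The d2 array of Cl19 replicate 1 correlated more closely with a 3c3 d2 array (r = 0.994) than with any of its own group (highest r = 0.970), and d2 results in Cl19 are given with and without it. Each slide held the 4 days of 1 replicate in the same positions, and each line and the primary SMC were scanned on days of their own, so day and slide position, and line and scan, cannot be told apart. As to identity, each sum of markers is the log2 of their summed linear signals, so the brightest markers weigh most. For 7 smooth muscle markers the sum went from 10.85–11.13 on d0 to 15.90–16.16 on d6 in Cl19. In 3c3 it went from 10.50–10.72 to 14.82–15.49, against 16.53–16.56 in primary SMC. *Myocd*, the smooth muscle coactivator myocardin, was measured by both arrays of primary SMC and on no more than 1 array of any day in either line. All 9 primitive endoderm markers were above background in every group of both lines, with sums falling from 17.14–17.36 to 14.81–15.37 in Cl19 and from 17.04–17.23 to 16.39–16.91 in 3c3, and *Gata4*, *Sox7*, *Dab2* and *Lama1* were on neither primary array. All 6 epithelial markers were also above background throughout both lines, the sum rising from 17.04–17.13 to 18.13–18.19 in Cl19 and from 17.07–17.17 to 17.91–17.99 in 3c3. The sum of 6 fibroblast markers was 17.09–17.10 in primary SMC, 13.23–13.90 in Cl19 on d6 and 10.60–11.73 in 3c3 on d6, where *Col3a1*, *Dcn* and *Lum* were on no array. The summed signal of the macrophage and blood markers stayed at 7.53–8.17 on d0 and d6 in Cl19 and went from 7.83–8.11 to 9.66–11.01 in 3c3, where Csf1r went from 3.93 ± 0.24 to 10.17 ± 0.87 (SD, n = 3) and Ptprc, Itgam and Hbb were on no array of d0 or d6. The endothelial sum fell from 7.93–8.20 to 5.83–6.44 in Cl19 and was at 7.20–7.47 and 7.56–7.79 in 3c3. The sum of 4 pluripotency markers went from 12.12–12.23 to 9.91–11.11 in Cl19 and from 13.26–13.45 to 11.82–12.65 in 3c3. Among them Sox2 went the other way in 3c3, on no d0 array and on all d6 arrays, and Esrrb was on no array. Pou5f1, which encodes *Oct4*, went from 10.28 ± 0.05 to 1.13 ± 0.78 in Cl19. In 3c3 it went from 11.53 ± 0.09 to 7.42 ± 0.58, where all d6 arrays still measured it. What part these shifts in other cell types' markers have in the values below was not tested, and in bulk RNA fewer cells of a type and less RNA per cell cannot be told apart.

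Of the 59 genes, 23 were well above background on all 26 arrays and 7 on none (*Fgf3*, *Fgf7*, *Fgf9*, *Fgf14*, *Fgf20*, *Fgf23* and *Dusp21*). In Cl19, the genes well above background on all 3 arrays numbered 35, 35, 38 and 38 from d0 to d6. In 3c3 these counts were 34, 33, 34 and 32, and 29 genes were on both arrays of primary SMC. Of the 22 ligands, Cl19 measured 4 on d0 and 7 on d6, 3c3 measured 3 and 4, and primary SMC 5. Receptors were the steadiest class, with all 7 probes above background on every day of both lines and 6 in primary SMC. MAPK phosphatases were measured for 9 of 10 genes on d0 in both lines, 8 on d6 in Cl19, 7 on d6 in 3c3 and 5 in primary SMC. The share of all gene probes above background on every array moved too, from 51.1% on d0 to 52.6% on d6 in Cl19 and from 48.0% to 42.1% in 3c3, with 41.6% in primary SMC. In 3c3 the d6 fall rests on replicate 3, whose lowest signal called above background was 4.20 on d6, against 2.21 and 2.07 on the other d6 arrays. Without replicate 3, in a count made after seeing the data, 3c3 had 34 of the genes on d0 and 36 on d6, 9 MAPK phosphatases on both days, and 53.2% of all probes on d6.

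**Figure D1:**
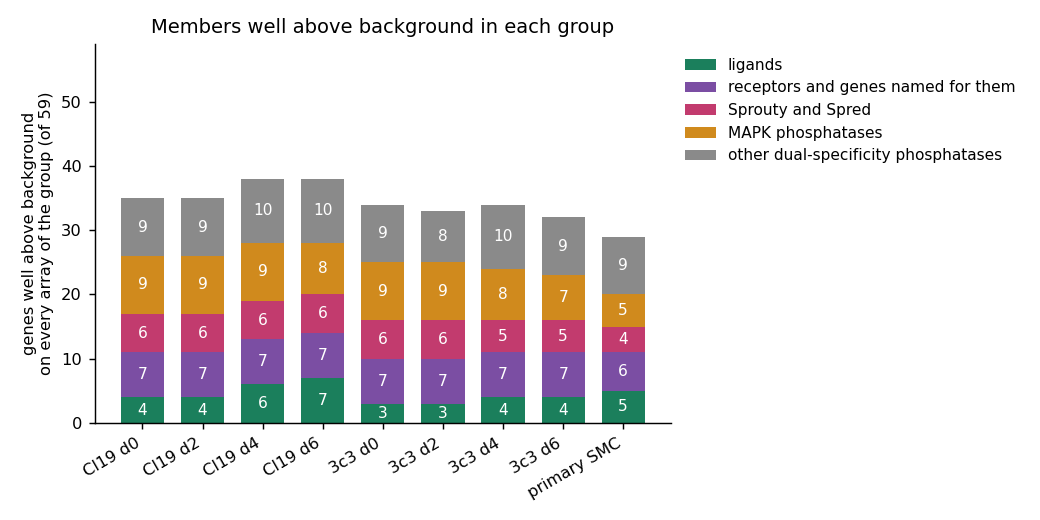
Number of the 59 genes well above background on every array of each group, stacked by class with the count of each class in its bar (3 arrays per line and day, 2 of primary SMC). Primary SMC, with 2 arrays in place of 3, has the fewest genes on all arrays (29), and Cl19 on d4 and d6 the most (38).

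Genes were tested where some group measured them fully, that is, where all arrays of that group were well above background for the probe. This held for 43 of the 59 genes and for 24442 of all probes, and 5 of the 43 passed through a single group: *Fgf15* through Cl19 on d0, *Fgf16* through Cl19 on d6, and *Fgf1*, *Fgf2* and *Fgf13* through primary SMC. Such a gene had to differ from that group. The counts below include these genes, and without them 25 genes were called on d6 in Cl19 (16 higher and 9 lower), 26 in 3c3 (14 higher and 12 lower), 3 between the lines on d0 and 9 for the difference in d6 change, each out of 38. The 38 still hold *Fgf17*, which passed only through Cl19 on d4 and d6, and *Fgf21*, which passed only through later days of both lines. Their d6 calls against d0 therefore also depend on the filter. All levels are log2 signals after quantile normalization, all changes are differences of log2 means with the standard error (SE) of the limma fit, and adjusted p-values are Benjamini-Hochberg values over all 24442 probes, called under 0.05. In the F-test over d0, d2, d4 and d6, 33 genes were called in Cl19, where 54.3% of all tested probes were, and 30 in 3c3, where 50% were. On d6 against d0, 29 genes were called in Cl19, 19 higher and 10 lower, beside 52.2% of all tested probes (22.0% higher and 30.3% lower). In 3c3, 27 were called on d6, 14 higher and 13 lower, beside 48.2% of all probes (19.7% higher and 28.6% lower). The median d6 change over the 43 genes was 0.54 in Cl19 and 0.13 in 3c3, where the median over all tested probes was -0.20 and -0.21. On the authors' log2 table, which is not quantile-normalized, the median over all probes moved to 0.10 and 0.09, and the 3c3 calls split into 16 higher and 9 lower (64.0% higher in place of 51.9%).

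The same direction was called in both lines for 22 genes. The share of all tested probes called alike in both lines was not counted, so 22 cannot be set beside it. Line by line, 52.2% of all tested probes were called in Cl19 and 48.2% in 3c3. The 13 that rose in both were *Fgf8*, *Fgf17*, *Fgf18*, *Fgf21*, *Fgfrl1*, *Spry1*, *Spred3*, *Dusp1*, *Dusp5*, *Dusp6*, *Dusp3*, *Dusp18* and *Dusp26*, of which *Fgf17* and *Fgf18* were not measured on every d6 array of 3c3. The 9 that fell in both were *Fgfr3*, *Fgfr4*, *Spry2*, *Dusp2*, *Dusp9*, *Dusp11*, *Dusp12*, *Dusp19* and *Dusp22*. *Fgf13* was called in opposite directions, but on values at or near background, and its sign was lost when dim probes were set to a floor. Calls were made in Cl19 but not in 3c3 for 6 genes (*Fgf1*, *Fgf22*, *Fgf16*, *Fgf15*, *Dusp4* and *Dusp23*) and in 3c3 but not in Cl19 for 4 (*Fgfr1*, *Fgfr2*, *Spred1* and *Dusp14*). For *Fgf1*, neither d0 nor d6 of Cl19 was fully measured. The difference between the lines was itself called for *Fgf16*, *Fgf15*, *Fgfr2* and *Dusp23* of those 10 genes, and *Fgf16* and *Fgf15* were tested only through the group in which they are high.

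**Figure D2:**
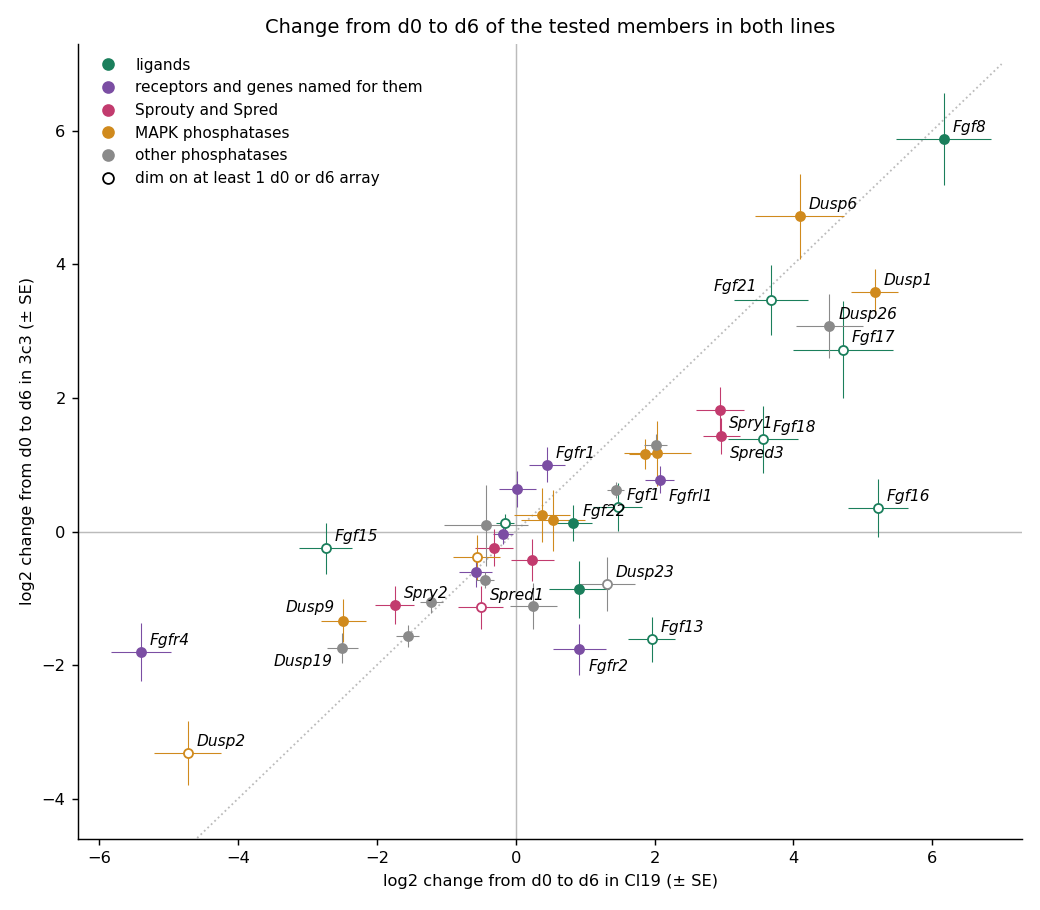
Change from d0 to d6 of the 43 tested genes in Cl19 (x axis) and 3c3 (y axis), in log2 units with SE bars; open points are genes not well above background on at least 1 d0 or d6 array. Fgf8, Dusp6, Dusp1 and Dusp26 lie at the upper right and Fgfr4 and Dusp2 at the lower left, while Fgf16 lies far right near 0 on the y axis.

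Among the ligands, *Fgf8* rose in both lines, and its relatives *Fgf17* and *Fgf18* rose in Cl19 and were only partly measured in 3c3. *Fgf8*, a ligand of gastrulation and limb outgrowth, was at 5.38, 5.38 and 5.92 on the 3 Cl19 arrays of d0 and at 11.78, 10.60 and 12.80 on d6. In 3c3 it was at 4.44, 4.40 and 3.94 on d0 and at 11.09, 9.20 and 10.12 on d6. The groups lie far apart in both lines, and the change was 6.16 ± 0.69 in Cl19 (71.7-fold, adjusted p = 3.8e-07) and 5.87 ± 0.69 in 3c3 (58.7-fold, adjusted p = 1.2e-06). It was already as high on d2, with 10.32, 13.53 and 13.27 in Cl19 and 10.80, 10.07 and 10.25 in 3c3, changes of 6.82 and 6.12. Without the d2 array of Cl19 replicate 1, the lowest of those 3, the Cl19 change on d2 was 7.84. Primary SMC were at 1.31 and 1.08, not well above background, which is at least 248-fold lower than Cl19 on d6 and at least 82.2-fold lower than 3c3 on d6.

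*Fgf17*, the closest relative of *Fgf8*, followed more slowly and from background. It was above background on 1 of 3 Cl19 arrays on d0 (1.05, 0.93 and 2.30) and on all 3 on d6 (6.16, 5.14 and 7.12), at least 13.3-fold higher. No p is given for Cl19, because *Fgf17* passed the filter only through Cl19 on d4 and d6. In 3c3 it reached 4.54, 2.56 and 3.43 on d6, above background on 2 of 3 arrays and on none on d0, so the call (2.73 ± 0.72, adjusted p = 0.0042) compares groups that were not fully measured, and normexp background correction took it to 0.27 with no call. *Fgf18*, which acts in bone and lung, appeared in Cl19 on d4 at 3.67 ± 0.41 and on d6 at 4.28 ± 0.57 (SD, n = 3), at least 3.78-fold above d0, where no array measured it (adjusted p = 7.0e-06). In 3c3 only 1 of 3 arrays measured *Fgf18* on d6 (3.67, 1.75 and 1.65, against 0.49, 1.81 and 0.63 on d0). The d0 and d6 values overlapped, and the change of 1.38 ± 0.50 (adjusted p = 0.030) was 2.19 ± 0.71 smaller than in Cl19 (adjusted p = 0.039). In primary SMC, unlike *Fgf8* and *Fgf17*, it was bright: 10.34 ± 0.01 (SD, n = 2), 6.06 ± 0.56 above Cl19 on d6, or 66.6-fold.

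*Fgf16*, of the FGF9 subfamily and known from heart development, was measured in no group but Cl19 on d4 (2 of 3 arrays) and d6. Its d0 values there were 0.49, 0.45 and 0.41, its d4 values 1.11, 3.72 and 3.47, and its d6 values 6.20, 5.82 and 4.97. The d6 level was at least 9.88-fold above d0, and no p is given because the gene was tested only through Cl19 on d6. In 3c3 all 12 values lay between 0.47 and 1.07, none above background, and the estimated changes of the lines lay 4.86 ± 0.61 apart. The other members of that subfamily, *Fgf9* and *Fgf20*, were on no array at all.

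Among the hormone-like ligands, *Fgf21*, which regulates metabolism through β-Klotho, came up from background in both lines. It was measured on no d0 array and on all d6 arrays, at 5.68, 4.90 and 4.30 in Cl19 (at least 6.07-fold higher) and 5.87, 6.05 and 5.59 in 3c3 (at least 8.99-fold higher). No p is given, because *Fgf21* passed the filter only through d2, d4 and d6 of Cl19 and d4 and d6 of 3c3. Primary SMC did not measure it (3.39 and 2.11). *Fgf15*, the rodent counterpart of human FGF19 and named *Fgf19* in the current RefSeq table, went the other way. It was above background only in Cl19 on d0, at 3.59, 2.85 and 3.37, and was at 0.41 to 0.96 on all later days, at least 2.53-fold lower on d6. It was also at least 1.52-fold higher in Cl19 than in 3c3 on d0. Both are given without a p, since *Fgf15* was tested only through Cl19 on d0.

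Of the remaining ligands tested, *Fgf22*, *Fgf1* and *Fgf13* were called on d6 in at least 1 line, and *Fgf10* and *Fgf2* in neither. *Fgf10*, a mesenchymal ligand for FGFR2 in epithelia, was above background on all 24 arrays of the lines, and went from 6.06 ± 0.24 to 6.97 ± 0.24 in Cl19 and from 6.13 ± 0.45 to 5.27 ± 0.59 in 3c3 (SD, n = 3), neither past the threshold (adjusted p = 0.084 and 0.11). Primary SMC did not measure it, at least 9.20-fold lower than Cl19 on d6 and at least 2.82-fold lower than 3c3. *Fgf22*, of the same subfamily, rose by 0.83 ± 0.27 in Cl19 (adjusted p = 0.013) and was at 7.41 ± 0.08 in primary SMC, against 5.31 ± 0.22 and 4.67 ± 0.24 on d6 in Cl19 and 3c3. *Fgf2*, the classical smooth muscle mitogen, was on no array of either line and at 8.07 ± 0.03 (SD, n = 2) in primary SMC, at least 70.5-fold above Cl19 on d6 and at least 37.9-fold above 3c3. *Fgf1*, the ligand that binds all the receptors, was at 4.37 ± 0.02 in primary SMC, at least 5.04-fold and 2.92-fold above d6 of Cl19 and 3c3. In Cl19 it was at 0.42, 0.39 and 0.35 on d0 and 1.97, 1.83 and 1.77 on d6 (1.47 ± 0.35, adjusted p = 0.0017), of which 1 array was above background, and it was not called in 3c3 (0.37 ± 0.35, adjusted p = 0.42). The Cl19 call thus compares groups that were not fully measured. Its d6 values lay below the lowest signals called above background on the Cl19 d0 arrays (2.73, 2.19 and 2.16). *Fgf13*, an intracellular homologue that binds sodium channels and is not secreted, was at 7.13 and 7.25 in primary SMC, at least 30.3-fold above Cl19 and 20.6-fold above 3c3. These 3 genes were tested only because primary SMC measured them. In the lines, *Fgf13* stood at 0.20 to 2.42 and was above background on 3 arrays, 1 of d4 and 2 of d6 in Cl19, with d6 changes of 1.96 ± 0.34 in Cl19 and -1.61 ± 0.34 in 3c3. The 11 ligands not tested (*Fgf3*, *Fgf4*, *Fgf5*, *Fgf6*, *Fgf7*, *Fgf9*, *Fgf11*, *Fgf12*, *Fgf14*, *Fgf20* and *Fgf23*) were above background on at most 2 arrays each.

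**Figure D3:**
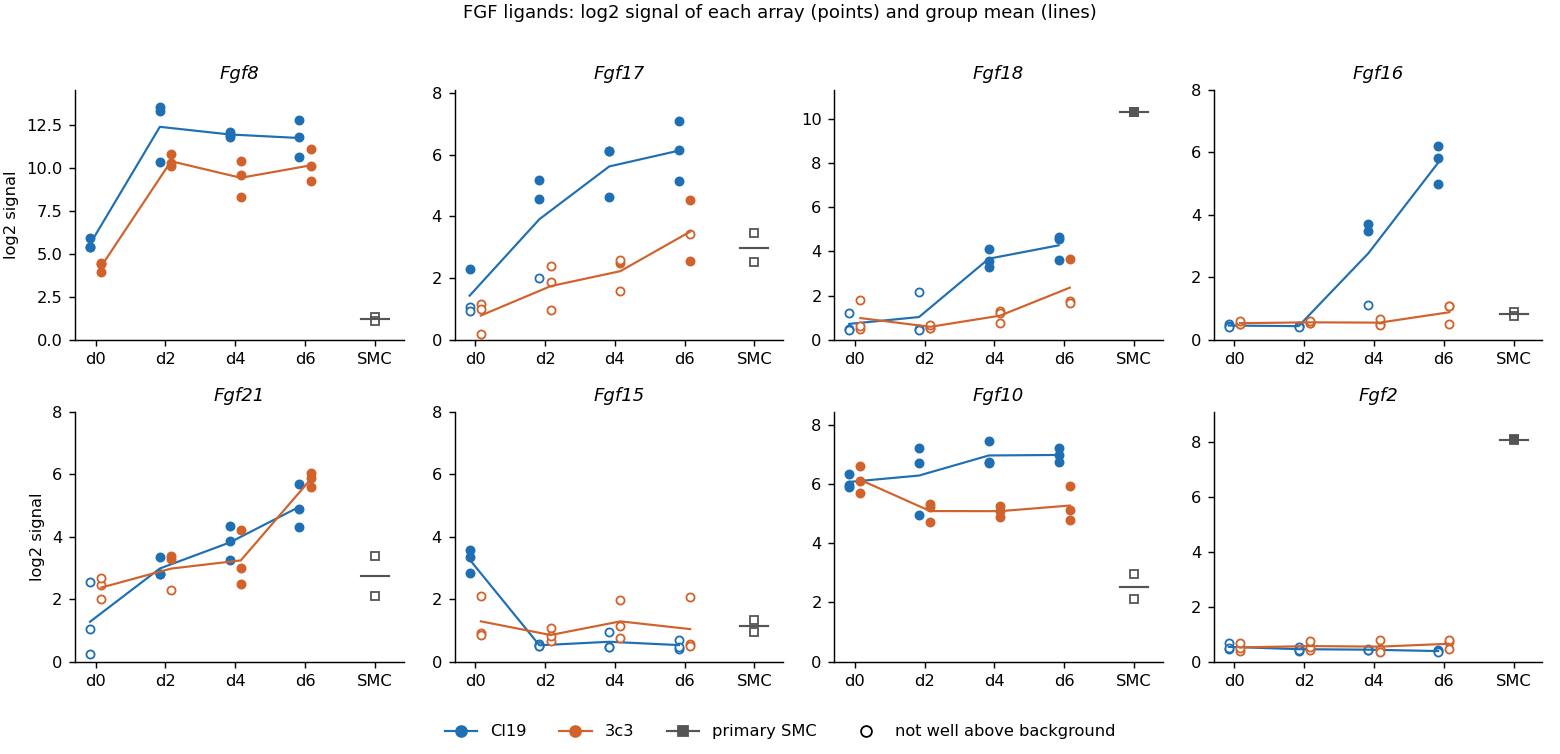
Log2 signal of 8 ligands by day in Cl19 and 3c3 and in primary SMC (squares); points are single arrays, lines join group means, and open points are not well above background. Fgf8 is high from d2 on in both lines, Fgf16 rises on d4 and d6 in Cl19 alone, and Fgf2 and Fgf18 are high in primary SMC.

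The receptors were all present from d0, and the change in each was its own. *Fgfr4*, which pairs with β-Klotho for FGF15 and FGF19, fell most. In Cl19 it was at 9.74, 9.48 and 9.64 on d0, at 9.93, 9.01 and 9.62 on d2 with no call, and then at 8.24, 6.41 and 6.88 on d4 and 4.14, 3.47 and 5.06 on d6. In 3c3 it stood at 8.38, 8.56 and 8.71 on d0, rose to 10.07, 9.64 and 9.98 on d2 (1.35 ± 0.44, adjusted p = 0.036), and was at 6.89, 6.16 and 7.19 on d6. The d6 arrays lay below all d0 arrays in both lines, a change of -5.40 ± 0.44 in Cl19 (42.2-fold, adjusted p = 6.0e-09) and -1.80 ± 0.44 in 3c3 (3.49-fold, adjusted p = 0.0021). The fall was larger in Cl19, with a difference between the lines of -3.60 ± 0.62 (adjusted p = 0.00035). *Fgfr4* was not above background in primary SMC (1.26 and 2.42).

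*Fgfr2*, the receptor whose splice forms serve epithelium and mesenchyme, moved in different ways in the lines by its brightest probe, but not by all its probes. The brightest probe was at 7.21, 7.84 and 7.35 on d0 in Cl19, at 9.05, 9.77 and 8.89 on d4 (1.77 ± 0.39, adjusted p = 0.00086) and at 8.52, 8.58 and 8.06 on d6. In 3c3 it began higher, at 9.54, 9.93 and 9.41, and was at 7.55, 7.90 and 7.32 by d2 and 9.14, 7.09 and 7.36 on d6. All d6 values of Cl19 were above its d0 values and all d6 values of 3c3 below. The d6 change was 0.92 ± 0.39 in Cl19, just short of the threshold (adjusted p = 0.053, and 0.037 with replicate as a block), and -1.77 ± 0.39 in 3c3 (adjusted p = 0.00087). The changes differed by 2.68 ± 0.55 (adjusted p = 0.0015), and the lines already differed on d0 by -2.16 ± 0.39 (Cl19 minus 3c3, adjusted p = 0.0027). Primary SMC were above both lines on d6, at 10.24 and 10.16.

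For *Fgfr2*, 3 probes are shown because they read different stretches of the transcript. All are on the minus strand of chromosome 1.
*Fgfr2*, brightest probe (chr1:189483073-189483132): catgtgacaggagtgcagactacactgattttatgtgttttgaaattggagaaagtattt
*Fgfr2*, probe across 2 exons (chr1:189499698-189501683): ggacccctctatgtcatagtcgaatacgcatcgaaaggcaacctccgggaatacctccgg
*Fgfr2*, probe beside the brightest (chr1:189482950-189482987): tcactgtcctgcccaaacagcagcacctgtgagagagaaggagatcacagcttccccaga
The probe across 2 exons, which spans 1986 bases of genome, gave 0.81 ± 0.45 in Cl19 and -1.62 ± 0.45 in 3c3 on d6, a difference of 2.43 ± 0.64 (adjusted p = 0.011), above background on all arrays of both lines. The probe beside the brightest gave 0.72 ± 0.37 and -0.78 ± 0.37, a difference of 1.5 ± 0.53 that was not called (adjusted p = 0.057) and that rests on arrays partly at background. Its coordinates cover only 38 bases for its 60 letters, so they do not place the whole probe. A further *Fgfr2* probe, whose sequence is not shown, did not follow. Its d6 change was -0.88 ± 0.37 in Cl19 (adjusted p = 0.0497) and -1.38 ± 0.37 in 3c3 (adjusted p = 0.0040), lower in both lines, and the difference between them was not called (0.50 ± 0.52, adjusted p = 0.63). It was above background on 1 of 3 arrays on d6 in Cl19 and 2 of 3 in 3c3.

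*Fgfr1*, the main receptor of mesenchymal cells, was at 10.24, 10.19 and 10.43 on d0 in 3c3 and at 10.93, 11.36 and 11.57 on d6, a rise of 1.00 ± 0.26 (2.00-fold, adjusted p = 0.0037). In Cl19 it went from 9.58, 9.09 and 9.25 to 9.54, 10.06 and 9.69, which was not called (0.45 ± 0.26, adjusted p = 0.16), and the difference between the lines was not called either (-0.55 ± 0.37, adjusted p = 0.39). *Fgfr1* in primary SMC (9.53 and 9.55) was close to Cl19 on d6 (-0.22 ± 0.29). *Fgfr3*, which restrains bone growth, changed by -0.58 ± 0.23 on d6 in Cl19 (9.76, 9.44 and 9.36 on d0, 9.35, 8.57 and 8.90 on d6, adjusted p = 0.042) and -0.60 ± 0.23 in 3c3 (9.64, 9.36 and 9.75 on d0, 8.72, 9.08 and 9.13 on d6, adjusted p = 0.037). Both calls are marginal: adding the dim probes to the test moved the adjusted p to 0.064 and 0.057. Primary SMC had less *Fgfr3* than either line, at 5.62 and 5.62, 9.97-fold below Cl19 and 10.2-fold below 3c3 on d6.

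*Fgfrl1*, a receptor-like protein that binds FGF but lacks the kinase, rose in both lines. It went from 12.56, 12.61 and 12.55 to 14.63, 14.56 and 14.75 in Cl19 (2.07 ± 0.20, 4.21-fold, adjusted p = 7.3e-08) and from 13.24, 12.80 and 12.98 to 13.88, 13.81 and 13.68 in 3c3 (0.78 ± 0.20, 1.72-fold, adjusted p = 0.0037). No d0 and d6 array overlapped in either line. The rise was 1.29 ± 0.29 larger in Cl19 (adjusted p = 0.0032), and the rise in 3c3 fell to 0.38 with no call when arrays were scaled to their 75th percentile. The predicted gene *Fgfr1l* was not called on d6 in either line, and nor was *Fgfr1op2*, a centrosomal protein named for its fusion with FGFR1.

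**Figure D4:**
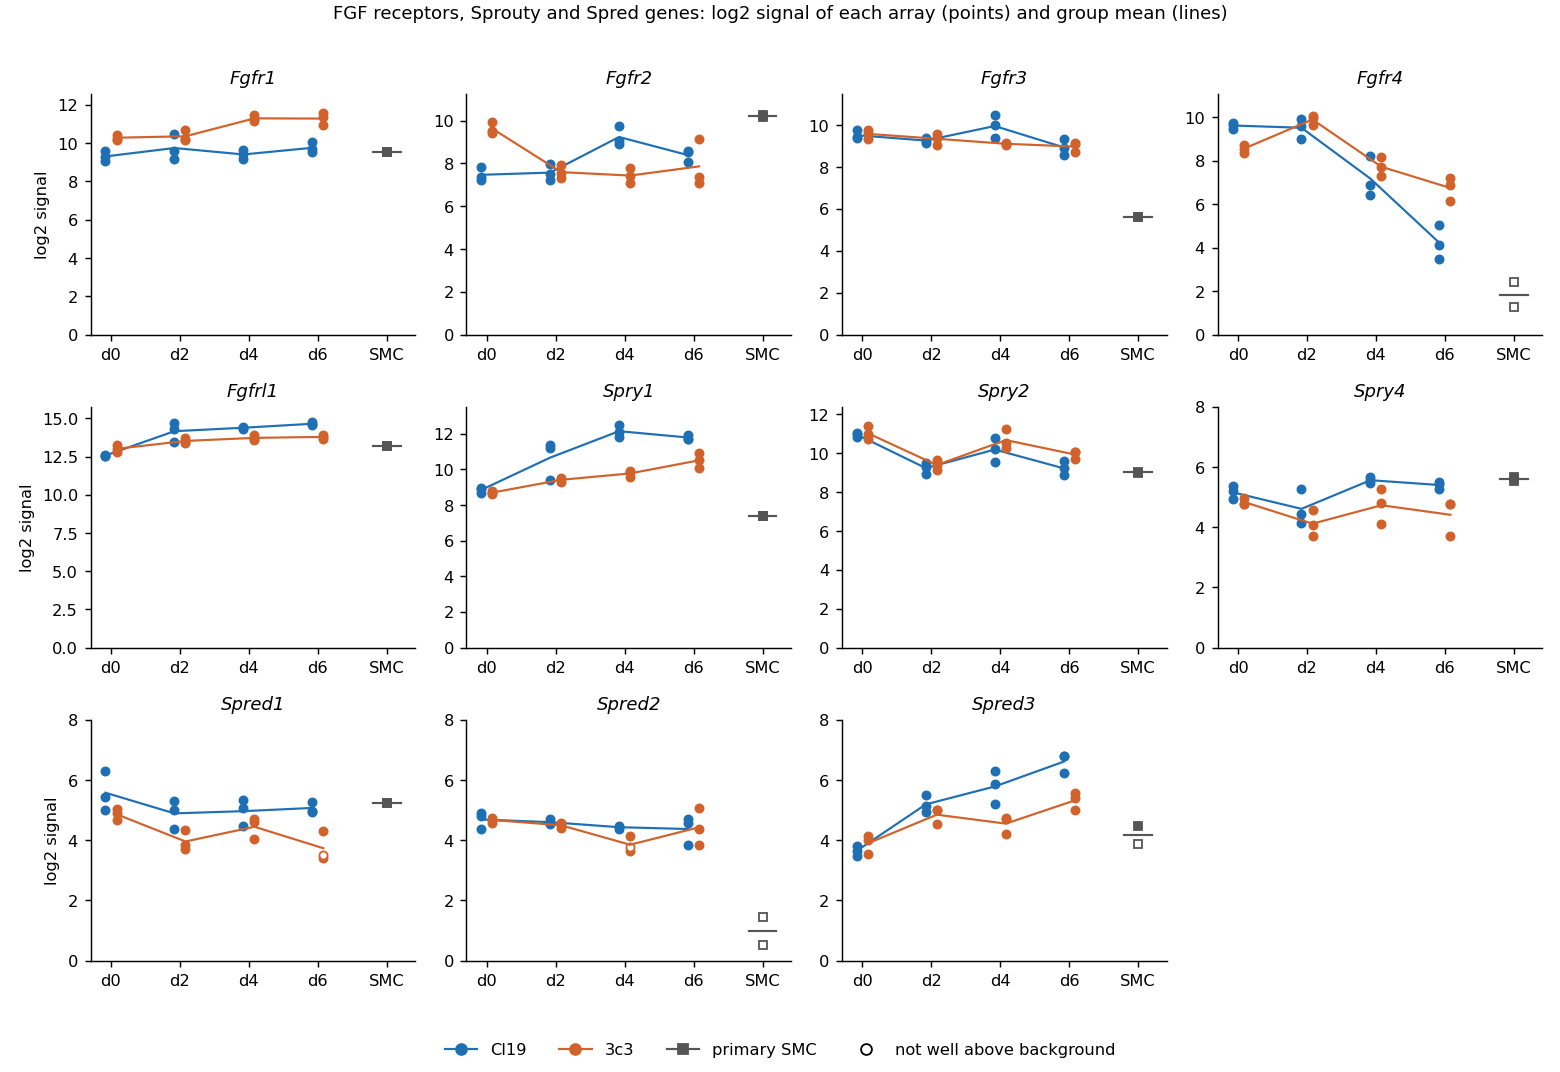
Log2 signal by day of the receptors (Fgfr1 to Fgfr4 and Fgfrl1) and of the Sprouty and Spred genes, drawn as points for arrays, lines through group means, open points where not well above background, and squares for primary SMC. Fgfr4 drops after d2 in both lines, and Spry1 rises while Spry2 falls.

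The Sprouty genes, which are induced by ERK and in turn inhibit receptor signalling, did not move as a set: 1 rose, 1 fell, 1 was not called and 1 was not tested. *Spry1* went from 8.98, 8.67 and 8.89 on d0 to 9.39, 11.21 and 11.39 on d2, 12.51, 11.84 and 12.09 on d4 and 11.72, 11.92 and 11.73 on d6 in Cl19. In 3c3 it went from 8.65, 8.62 and 8.81 to 10.92, 10.10 and 10.51 on d6. The d6 values are above every d0 value in both lines, a change of 2.94 ± 0.34 in Cl19 (7.69-fold, adjusted p = 6.5e-07) and 1.81 ± 0.34 in 3c3 (3.52-fold, adjusted p = 0.00023). *Spry2* fell already by d2, from 11.04, 10.87 and 11.00 to 9.50, 8.94 and 9.29 in Cl19 (-1.73 ± 0.28) and from 11.39, 10.74 and 10.97 to 9.13, 9.42 and 9.64 in 3c3 (-1.64 ± 0.28). It was partly back on d4, at 10.80, 9.57 and 10.21 in Cl19 and 10.26, 11.24 and 10.56 in 3c3, and low again on d6, at 9.59, 8.87 and 9.22 and at 9.72, 10.06 and 10.05. The d6 change was -1.74 ± 0.28 in Cl19 (3.34-fold lower, adjusted p = 3.4e-05) and -1.10 ± 0.28 in 3c3 (2.14-fold lower, adjusted p = 0.0034). For *Spry2*, primary SMC (9.06 and 9.01) lay within the d6 range of Cl19, whereas their *Spry1* (7.41 and 7.40) was below every array of the lines.

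*Spry4* was low throughout and changed by 0.24 ± 0.31 in Cl19 (5.36, 5.19 and 4.94 on d0, 5.43, 5.29 and 5.50 on d6, adjusted p = 0.55) and -0.43 ± 0.31 in 3c3 (4.79, 4.77 and 4.97 on d0, 4.79, 3.70 and 4.76 on d6, adjusted p = 0.28). *Spry3* was at 0.16 to 3.92 and measured on 4 arrays of all 26. The Spred genes, which bind RAS-GAP neurofibromin and block RAF activation, also split. *Spred3* rose from 3.64, 3.48 and 3.82 to 6.79, 6.24 and 6.80 in Cl19 (2.96 ± 0.27, 7.79-fold, adjusted p = 2.4e-08) and from 4.15, 3.55 and 3.99 to 5.57, 5.01 and 5.39 in 3c3 (1.43 ± 0.27, 2.69-fold, adjusted p = 0.00020), and the rise was larger in Cl19 by 1.54 ± 0.38 (adjusted p = 0.0068). *Spred1* fell in 3c3 alone by test, from 4.90, 5.03 and 4.67 to 4.29, 3.40 and 3.51, of which 2 of 3 were above background (at least 1.87-fold lower, adjusted p = 0.0070). In Cl19 it went from 6.30, 5.0 and 5.44 to 4.95, 4.98 and 5.28 (-0.51 ± 0.32, adjusted p = 0.20), and the changes did not differ by test (adjusted p = 0.44). *Spred2* was at 3.83 to 5.07 on d0 and d6 of both lines, not called on d6, and not above background in primary SMC (0.52 and 1.43).

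The MAPK phosphatases included rises and falls of over 4 log2 units. *Dusp6*, the cytoplasmic ERK phosphatase and a standard readout of FGF signalling, was at 6.10, 6.71 and 6.48 on d0 in Cl19, 6.23, 9.0 and 8.10 on d2, 8.43, 10.63 and 8.96 on d4 and 9.72, 11.41 and 10.43 on d6. In 3c3 it was at 5.90, 6.31 and 5.88, then 6.15, 6.91 and 6.48, then 8.07, 10.09 and 8.97, then 10.63, 11.44 and 10.18. It climbed from day to day in both lines, by 4.09 ± 0.64 on d6 in Cl19 (17.0-fold, adjusted p = 2.1e-05) and 4.72 ± 0.64 in 3c3 (26.3-fold, adjusted p = 6.2e-06). On d2, when *Fgf8* was called in both lines, the *Dusp6* change was not called in 3c3 (0.48 ± 0.64, adjusted p = 0.69). In Cl19 the d2 change was not called (1.35 ± 0.64, adjusted p = 0.14), but without the d2 array of replicate 1 it was (2.12, adjusted p = 0.015). Primary SMC were at 11.17 and 11.14, and the difference from d6 was 0.64 ± 0.71 against Cl19 and 0.41 ± 0.71 against 3c3, neither called.

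*Dusp9*, another cytoplasmic ERK phosphatase, which is known to hold ERK activity low in pluripotent cells, fell in both lines. It went from 16.63, 16.47 and 16.70 to 13.77, 13.85 and 14.74 in Cl19 (-2.48 ± 0.32, 5.58-fold, adjusted p = 2.4e-06) and from 17.30, 17.08 and 17.23 to 15.99, 15.81 and 15.81 in 3c3 (-1.33 ± 0.32, 2.52-fold, adjusted p = 0.0020). In primary SMC it was not above background (2.88 and 1.5), at least 1302-fold lower than Cl19 and at least 4385-fold lower than 3c3 on d6. *Dusp7*, the remaining ERK-selective phosphatase, was not called on d6 in either line.

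Among the nuclear inducible phosphatases, *Dusp1*, an immediate-early stress gene that acts on JNK, p38 and ERK, rose most. It went from 8.63, 8.15 and 8.20 to 13.88, 13.76 and 12.86 in Cl19 (5.17 ± 0.34, 36.0-fold, adjusted p = 4.7e-10) and from 8.67, 8.14 and 8.82 to 11.83, 12.66 and 11.89 in 3c3 (3.59 ± 0.34, 12.0-fold, adjusted p = 9.2e-08). The rise was larger in Cl19 by 1.58 ± 0.48 (adjusted p = 0.027), and both lines ended above primary SMC (10.93 and 10.91). *Dusp2* did the opposite: it fell from 6.89, 6.72 and 7.17 to 2.55, 1.60 and 2.47 in Cl19, with 1 array still above background (at least 26.4-fold lower, adjusted p = 1.2e-07), and from 7.31, 7.27 and 7.76 to 5.23, 3.19 and 3.96 in 3c3, with 2 above background (at least 9.45-fold lower, adjusted p = 1.4e-05). *Dusp4* rose to 9.45 ± 1.33 on d4 in Cl19 and stood at 7.81 ± 0.24 on d6, 2.04 ± 0.48 above d0 (adjusted p = 0.0014), with a smaller change of 1.17 ± 0.48 in 3c3 that was not called (adjusted p = 0.052). *Dusp5*, a nuclear ERK phosphatase, rose in both lines, by 1.86 ± 0.23 (adjusted p = 1.2e-06) and 1.16 ± 0.23 (adjusted p = 0.00031). The JNK- and p38-selective *Dusp8* and *Dusp16* were not called on d6, although both were on d4 in Cl19, by 1.88 ± 0.46 and 1.44 ± 0.40 (adjusted p = 0.0022 and 0.0062), and *Dusp10* was above background on 3 single arrays.

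**Figure D5:**
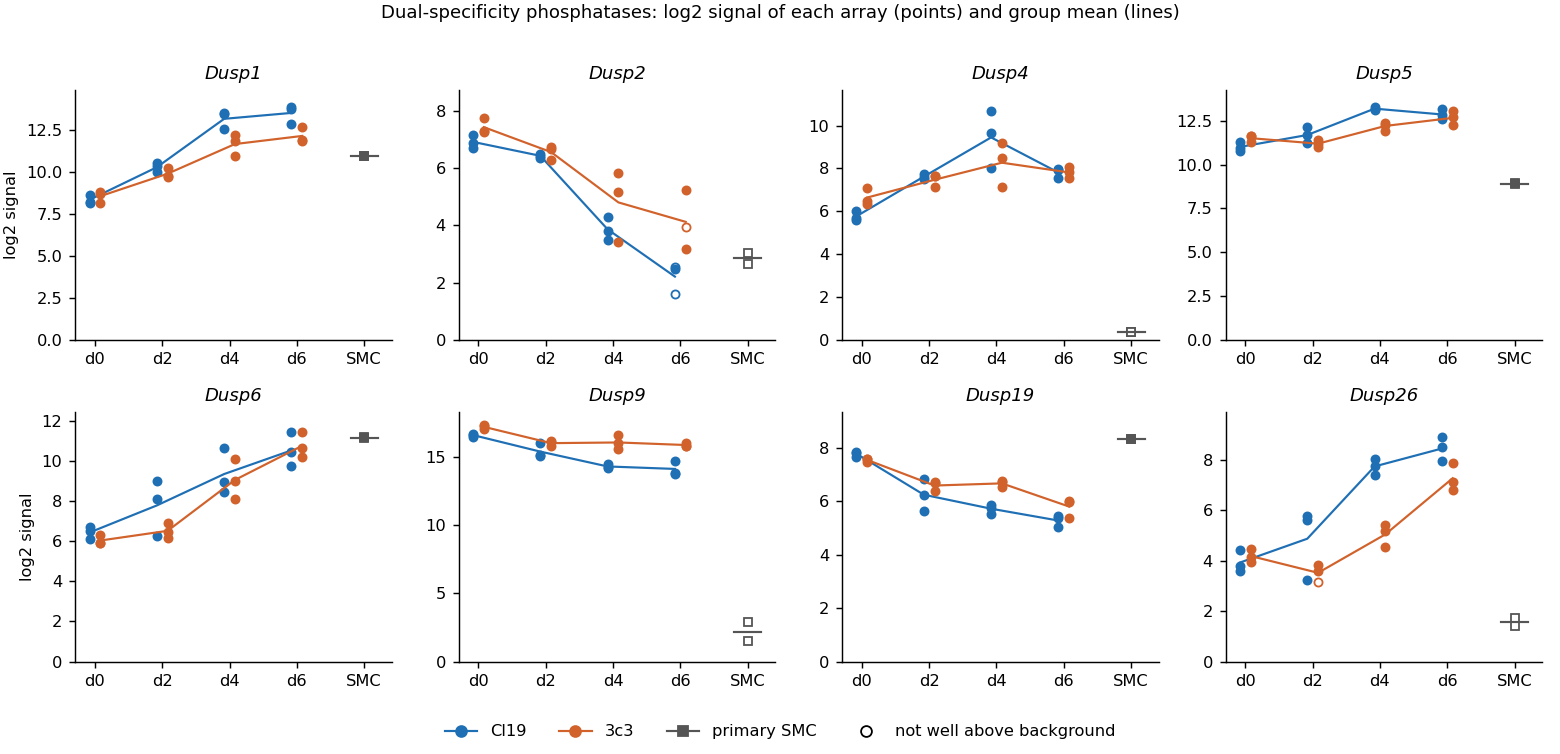
Log2 signal by day of 8 phosphatases in Cl19, 3c3 and primary SMC (squares), with arrays as points, group means as lines and open points where not well above background. Dusp1, Dusp6 and Dusp26 rise while Dusp2, Dusp9 and Dusp19 fall, and Dusp9 and Dusp26 are at background in primary SMC.

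Of the 13 other dual-specificity phosphatases, which are not dedicated MAPK feedback enzymes, 10 were tested and 8 called on d6 in each line. In Cl19 these were 4 rises and 4 falls, beside 52.2% of all tested probes (22.0% higher and 30.3% lower). In 3c3 they were 3 rises and 5 falls, beside 48.2% (19.7% higher and 28.6% lower). *Dusp26*, a neural and neuroendocrine phosphatase, rose most, from 4.42, 3.77 and 3.58 to 8.90, 7.95 and 8.49 in Cl19 (4.52 ± 0.48, 22.9-fold, adjusted p = 2.2e-07) and from 4.47, 4.13 and 3.96 to 6.82, 7.87 and 7.11 in 3c3 (3.08 ± 0.48, 8.46-fold, adjusted p = 3.3e-05). It was not above background in primary SMC (1.71 and 1.43), at least 25.5-fold and 11.3-fold below d6 of Cl19 and 3c3. *Dusp19* fell most, from 7.82, 7.67 and 7.86 to 5.38, 5.43 and 5.03 in Cl19 (-2.50 ± 0.22, 5.66-fold, adjusted p = 2.1e-08) and from 7.46, 7.60 and 7.58 to 6.03, 5.39 and 5.99 in 3c3 (-1.75 ± 0.22, 3.35-fold, adjusted p = 3.4e-06), and its level in primary SMC (8.35 and 8.35) was above all arrays of the lines. *Dusp12* fell by the same estimate in both, a change of -1.56 ± 0.17 in each. *Dusp22* changed by -1.22 ± 0.17 in Cl19 and -1.05 ± 0.17 in 3c3, and *Dusp11*, an RNA phosphatase, by -0.44 ± 0.12 and -0.73 ± 0.12. *Dusp3* and *Dusp18* rose, by 1.44 ± 0.12 and 2.02 ± 0.16 in Cl19 and by less in 3c3, 0.62 ± 0.12 and 1.30 ± 0.16. The dimmest of 3 *Dusp3* probes did not call the rise in 3c3 (0.34 ± 0.20, adjusted p = 0.18). *Dusp14* fell in 3c3 (-1.12 ± 0.34, adjusted p = 0.011) and not by test in Cl19 (0.25 ± 0.34), and *Dusp23* was higher on d6 in Cl19 (at least 1.86-fold, adjusted p = 0.0094).

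On d2 the group had changed less widely than on d6. In Cl19, 17 genes were called, 11 higher and 6 lower, beside 22.6% of all tested probes (11.2% higher and 11.5% lower), and in 3c3 13 were called, 5 higher and 8 lower, beside 19.1% (9.80% higher and 9.27% lower). All 17 d2 calls in Cl19 were called in the same direction on d6. In 3c3 all 13 were called on d6 too, 12 of them in the same direction, and the exception was *Fgfr4*, higher on d2 and lower on d6. Without the d2 array of Cl19 replicate 1, 18 genes were called, 16 of them shared: *Fgf21* was lost, and *Dusp6* and *Dusp26* were gained. The 3c3 count rests on the slide of replicate 3 and on the d2 array of replicate 1: 5 genes were called without that slide and 7 without that array.

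Before differentiation, on d0, 5 of the 43 tested genes were called between the lines, 1 higher in Cl19 (*Fgf15*) and 4 lower (*Fgfr1*, *Fgfr2*, *Fgf13* and *Dusp3*), beside 3.07% of all probes (2.00% higher and 1.08% lower). *Fgf15* was tested only through Cl19 on d0, so it had to differ. *Fgf13* was above background on no d0 array. Without genes tested through a single group, 3 of 38 were called, all lower in Cl19. The dimmest of 3 *Dusp3* probes did not call the difference (-0.57 ± 0.20, adjusted p = 0.20). For *Fgfr2*, the probe that spans exons called it (-1.85 ± 0.45, adjusted p = 0.025). The probe beside the brightest (-0.77 ± 0.37, adjusted p = 0.48) and the further probe (-1.28 ± 0.37, adjusted p = 0.067) did not. The *Fgfr1* call was marginal (adjusted p = 0.046). Without the slide of 3c3 replicate 3 the count of 5 went to 3, and with only the compared arrays in the fit to 9. The d6 change differed between the lines for 12 genes, more positive in Cl19 for 10 and more negative for *Fgfr4* and *Fgf15*, beside 17.4% of all probes (8.17% more positive and 9.27% more negative). The 10 were *Fgf18*, *Fgf16*, *Fgf13*, *Fgfr2*, *Fgfrl1*, *Spred3*, *Dusp1*, *Dusp3*, *Dusp18* and *Dusp23*. Without genes tested through a single group, 9 of 38 differed, 8 more positive and 1 more negative in Cl19. A further probe each of *Dusp3* and *Dusp18* did not call the difference (adjusted p = 0.12 for both). For *Fgf8*, *Dusp6*, *Fgf21* and *Spry2* the difference was not called, at 0.29 ± 0.97, -0.63 ± 0.90, 0.22 ± 0.75 and -0.65 ± 0.40, and an interval of 2 SE on either side reaches past 1 log2 unit for each of these genes.

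Against primary SMC, 32 genes were called relative to Cl19 on d6, 13 higher in primary SMC and 19 lower, beside 71.4% of all probes (32.8% higher and 38.6% lower). Relative to 3c3 on d6, 34 were called, 14 higher and 20 lower, beside 71.5% (33.4% higher and 38.1% lower). Without the genes that passed the filter through a single group, 28 of 38 were called against Cl19, 10 higher and 18 lower. Against 3c3, 31 of 38 were called, 11 higher and 20 lower. Both comparisons use the same 2 primary arrays, so they are not independent. Whether these 2 arrays hold separate samples is not known. They also depend on the normalization: on the authors' log2 table, which was not quantile-normalized and which puts the median of all probes 2.17 and 2.09 lower in primary SMC, 6 genes were higher and 30 lower against Cl19, and 5 higher and 28 lower against 3c3. Relative to all genes, the ligands higher in primary SMC than in both lines were *Fgf1*, *Fgf2*, *Fgf13*, *Fgf18* and *Fgf22*. Of these, *Fgf1*, *Fgf2* and *Fgf13* were tested only through primary SMC, so they had to differ and their calls are no evidence. *Fgf8*, *Fgf10* and *Fgf21* were lower. Among the phosphatases, *Dusp8* was at 12.44 ± 0.29 (3.72 ± 0.51 above each line) and *Dusp14* at 10.36 ± 0.01 (3.44 ± 0.38 above Cl19 and 4.47 ± 0.38 above 3c3). *Dusp4* (at least 16.4-fold and 16.5-fold), *Dusp5* (15.5-fold and 13.5-fold), *Dusp16* (4.74-fold and 5.71-fold) and *Dusp22* (6.13-fold and 8.11-fold) were lower than in Cl19 and 3c3. The fibroblast markers that are bright in this RNA, given above, move with these differences, and their part was not tested.

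Other genes of the pathway were taken from lists drawn up by their known roles. Among 18 genes that ERK is known to switch on or that restrain the cascade, 16 were tested, and on d6 12 were called in Cl19 (9 higher and 3 lower) and 11 in 3c3 (10 higher and 1 lower), beside 52.2% and 48.2% of all tested probes. The immediate-early gene *Ier3* rose by 2.60 ± 0.28 in Cl19 and 2.77 ± 0.28 in 3c3, the AP-1 subunit *Fosl1* by 3.14 ± 0.40 and 2.03 ± 0.40, and *Errfi1*, an inhibitor of the EGF receptor, by 2.12 ± 0.18 and 1.83 ± 0.18. The ETS factors, which are common readouts of FGF signalling, did not move together: *Etv5* changed by -2.68 ± 0.28 and -1.42 ± 0.28, *Etv4* by 1.09 ± 0.32 (adjusted p = 0.0070) in Cl19 with 0.43 ± 0.32 (adjusted p = 0.28) in 3c3, and *Etv1* ended at least 31.5-fold above d0 in Cl19, where 1 of 3 d0 arrays was above background. *Ccnd1*, cyclin D1, fell by 3.61 in Cl19 and rose by 0.87 in 3c3, a difference of -4.48 between the lines. Among 23 extracellular partners and co-receptors, 19 were tested. All 19 were called on d6 in Cl19 (10 higher and 9 lower) and 10 in 3c3 (5 higher and 5 lower), the latter close to the 48.2% of all tested probes. *Gpc4*, a heparan sulphate proteoglycan, rose by 7.10 ± 0.50 in Cl19 and 6.39 ± 0.50 in 3c3. *Klb*, the β-Klotho with which FGF15 and FGF21 signal, was at 8.40 ± 0.21 on d0 in Cl19 and measured on 2 of 3 arrays on d6 (at least 62.1-fold lower), whereas in 3c3 it went from 8.49 ± 0.29 to 8.01 ± 0.36 (-0.49 ± 0.39, adjusted p = 0.33), and the difference between the lines was called (-5.74, adjusted p = 8.1e-07). In Cl19, *Klb* and *Fgfr4* were thus both lower on d6, and *Fgf21* was higher.

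Promoter sequences are shown for 3 genes that rose in both lines, because TGF-β acts through SMAD proteins, ERK through ETS factors, and smooth muscle genes through the CArG box bound by serum response factor. RefSeq promoters of GRCr8, 250 bases before to 50 after the gene start, matched 48 of the 59 genes. Capitals mark the matches to the motif named for each.
*Fgf8*, SMAD core (chr1:254539556-254539855, minus strand): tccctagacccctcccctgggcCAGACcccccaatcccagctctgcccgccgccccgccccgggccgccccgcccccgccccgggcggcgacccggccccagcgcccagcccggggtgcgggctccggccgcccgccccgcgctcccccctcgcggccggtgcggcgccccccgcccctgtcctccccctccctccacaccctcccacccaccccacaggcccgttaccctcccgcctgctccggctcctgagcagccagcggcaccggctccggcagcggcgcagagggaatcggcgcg
*Dusp1*, CRE (chr10:17184603-17184902, plus strand): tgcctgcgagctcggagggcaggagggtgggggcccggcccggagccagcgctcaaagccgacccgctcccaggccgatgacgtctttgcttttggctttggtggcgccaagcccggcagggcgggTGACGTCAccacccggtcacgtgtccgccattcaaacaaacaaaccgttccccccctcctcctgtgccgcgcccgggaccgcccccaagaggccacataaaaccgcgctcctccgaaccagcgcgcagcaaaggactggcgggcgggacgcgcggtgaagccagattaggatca
*Dusp5*, CArG box and ETS core (chr1:262543524-262543823, plus strand): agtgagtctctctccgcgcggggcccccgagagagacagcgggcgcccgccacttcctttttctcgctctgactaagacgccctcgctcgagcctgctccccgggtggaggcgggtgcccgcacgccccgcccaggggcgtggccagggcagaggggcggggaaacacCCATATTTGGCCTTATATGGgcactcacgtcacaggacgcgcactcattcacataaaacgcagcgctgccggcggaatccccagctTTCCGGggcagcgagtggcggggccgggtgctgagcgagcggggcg
The SMAD core CAGAC, searched on both strands like the others, was in 50.1% of all 33469 promoters, in 5 of the 11 matched genes that rose in both lines and in 3 of the 9 that fell. The ETS core CCGGAA was in 15.0% of promoters, 2 of 11 and 3 of 9. The cyclic AMP response element (CRE) TGACGTCA was in 1.83%, and here in *Dusp1* at position -124 from the gene start, and in *Dusp11*, which fell. The CArG box was in 1.64% of promoters and in *Dusp5* as a pair of adjacent matches starting at -82 and -72. A match is a description of the letters and shows no binding.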

How the data were processed

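RNA from 26 samples was hybridised, 1 per array, to Agilent one-colour 60-mer rat arrays. The authors deposited Agilent Feature Extraction 10.1.1.1 scanner files, whose processed signal intensity per spot is background-subtracted, and a table of log2 values that had not been normalized between arrays, used here as an alternative. Spots of a probe were averaged, log2 intensities quantile-normalized as in the study's methods, and control spots left out. No array was dropped. A probe was tested where all arrays of any 1 group were well above background. One limma 3.58.1 fit (R 4.3.3) covered all 26 arrays in 9 groups, with Benjamini-Hochberg adjustment over all tested probes and a threshold of 0.05. It was tested on simulated data. Where a group was not above background on every array, a fold is a bound ("at least") against the higher, per array, of the lowest signal among probes above background and the probe's own.

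Receptors, Sprouty and Spred genes, Dusp6 and genes called over time or against primary SMC were named, with the value on every array for the first 3 and the 5 largest rises and falls. The members and lists were chosen with earlier results of these data known. Replicate number marks the slide. Deviations of same-numbered arrays correlated over 0.1 in 16 of 18 pairs in Cl19 (lowest 0.06) and 18 of 18 in 3c3 (lowest 0.20), so replicate as a block was an alternative, with others of scaling, background, filter and left-out arrays. The precision is limited by the number of arrays. Promoters were from RefSeq. One smooth muscle actin gene and the sequence of 1 Fgfr2 probe are not reported here.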

Additional observations from a re-analysis of the deposited data

Results flagged for a closer look

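For 12 genes the d6 change differed between Cl19 and 3c3 by the limma test of that difference (Cl19 minus 3c3, in log2 units). Among the ligands the difference was 2.19 for *Fgf18*, 4.86 for *Fgf16*, -2.49 for *Fgf15* and 3.57 for *Fgf13*, and in all of these at least 1 line had values at background. *Fgf16* and *Fgf15* were tested only through the group in which they are high. Among the receptors it was 2.68 for *Fgfr2*, -3.60 for *Fgfr4* and 1.29 for *Fgfrl1*, all on probes above background on every array of both lines, though a further *Fgfr2* probe gave 0.50 with no call. For *Spred3* it was 1.54 and for *Dusp1* 1.58. For the other phosphatases it was 0.82 for *Dusp3*, 0.71 for *Dusp18* and 2.10 for *Dusp23*, of which *Dusp23* was at background on most arrays of d0. The second *Dusp18* probe gave 0.52 ± 0.22 with no call (adjusted p = 0.12). Of the further *Dusp3* probes, 1 gave 0.90 ± 0.21 (adjusted p = 0.0041) and 1 gave 0.68 ± 0.29 with no call (adjusted p = 0.12). The lines were hybridised on different slides and scanned on different days, so line, slide and scan cannot be told apart here.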

How the results depend on the processing

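Counts of genes called stayed within 1.5 times of the value given in the report under every alternative run, with these exceptions. The d2 count in 3c3 went from 13 to 5 without the 4 arrays of 3c3 replicate 3, and to 7 without the d2 array of 3c3 replicate 1. The d0 count between the lines went from 5 to 3 with a floor for dim probes, to 9 with only the compared arrays, and to 3 without those 4 arrays. Leaving out 1 array at a time gave 30 to 34 genes over time in Cl19 and 27 to 30 in 3c3, 12 to 18 and 7 to 12 on d2 (7 without the d2 array of 3c3 replicate 1), 27 to 29 and 25 to 27 on d6, 9 to 13 for the difference between the lines, 4 on d0, and 31 to 32 and 30 to 33 against primary SMC. With replicate as a block the counts were 35 and 32 over time, 21 and 15 on d2, 30 and 29 on d6 and 14 for the difference between the lines. Of 46 d6 changes of single genes, 45 kept their call under the block, and that of *Fgfr2* in Cl19 (0.92) passed.

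*Fgf13* reversed with a floor for dim probes, to -0.09 in Cl19 and 0.16 in 3c3. Other d6 calls that were lost were *Fgf17* in 3c3 (0.27 with normexp, 1.09 with the floor, 2.46 without the slide of replicate 3), *Fgfrl1* in 3c3 (0.38 with 75th percentile scaling), *Spred1* in 3c3 (-0.75 on the authors' table) and *Fgfr3* in both lines (-0.37 and -0.40 on that table). The causes were not tested. The number of arrays, and for ligands the signal over background, limit what could be called.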

Other observations

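Of 24 adaptors and kinases of the RAS and ERK cascade, 23 were tested and these were called: 13 on d6 in Cl19 (10 higher and 3 lower) and 7 in 3c3 (4 higher and 3 lower), beside 52.2% and 48.2% of all tested probes. *Mapk3*, which encodes ERK1, rose in both lines, by 1.71 ± 0.21 and 1.12 ± 0.21. *Braf* rose by 0.72 ± 0.15 in Cl19 and fell by 0.69 in 3c3, and the difference between the lines was 1.41 (adjusted p = 0.00011).

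Among the genes that build or trim heparan sulphate, on which FGF binding depends, *Ext1*, a chain polymerase, changed by -1.34 ± 0.16 in Cl19 and -1.24 ± 0.16 in 3c3. *Hs6st1*, a sulphotransferase, rose by 2.44 ± 0.36 in Cl19 and was not called in 3c3 (0.56 ± 0.36), and *Sulf2*, which removes the same sulphates, was at least 17.6-fold higher in Cl19 and 4.13-fold higher in 3c3, from 2 of 3 arrays above background on d0 in each.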
